A study of Mus musculus with 24 samples.

Results

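The 10 genes described here, of secreted inflammatory signals and of the response to tumour necrosis factor (TNF), were followed through mouse embryonic fibroblasts (MEFs) of 2 genotypes under 3 treatments. They were the chemokine genes Ccl2, Ccl7, Cxcl1, Cxcl5 and Cxcl12, the cytokine genes Il6, Lif and Csf1, and the TNF-induced genes Tnfaip2 and Tnfaip3. All 10 were taken by name from the 55487 genes of the deposited count table. Of these, 8 were among the 15828 genes that passed a filter on low counts and could be tested, while Il6 and Cxcl5 were too low.

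The study asked how activation of AMP-activated protein kinase (AMPK) and inhibition of the kinase MTOR change transcription in cells with and without AMPK. Poly(A) RNA of wild-type MEFs (WT) and of MEFs labelled as AMPK knockout (AMPK KO) was sequenced after DMSO, the vehicle, after MK-8722, an allosteric activator of AMPK, or after torin1, an ATP-competitive MTOR inhibitor, in 6 groups of 4 libraries. According to the methods, the knockout cells lack both genes for the catalytic subunit, Prkaa1 and Prkaa2, and each genotype is a line of MEFs obtained from another laboratory. The labels give neither dose nor duration and name no added cytokine. Each group held 1 library of each of 4 passages (WT 12 to 15, AMPK KO 16 to 19), so genotype, cell line and passage range cannot be told apart. The labels name no separate animals or derivations, and p-values within a genotype therefore measure the spread between these passages of 1 line.

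Chemokines are small secreted proteins that guide white blood cells along a gradient. Fibroblasts release them with cytokines when they sense TNF, interleukin 1 or microbial products, largely through the transcription factor NF-kappaB, and the messenger RNAs of several are short-lived. Cxcl12 differs in being made by stromal cells without such a stimulus, and Tnfaip3 encodes A20, an enzyme that restrains NF-kappaB in turn.

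Total counts, after rounding, lay between 26900187 and 34192637 per library, and RNA integrity numbers between 9.7 and 10. Markers of leukocytes were close to absent, with a summed level of 1.52 to 3.80 TPM (a level relative to the whole library and corrected for transcript length) over 9 genes, of which Cd14 alone reached a mean of 1 TPM. The 10 fibroblast markers summed to 5803 to 9860 TPM across WT libraries and to 2776 to 4832 TPM across AMPK KO libraries. The sums also moved with torin1, without overlap, with a range of 5803 to 7521 TPM under DMSO and 8304 to 9860 TPM under torin1 for WT. For AMPK KO the ranges were 2938 to 3489 TPM under DMSO and 4454 to 4832 TPM under torin1. Of the markers, Dcn and Lum were near absent from all libraries, at no more than 0.348 and 0.0201 TPM. Pdgfra and Thy1 were low, with medians of 0.342 and 0.771 TPM and at most 1.78 and 3.52 TPM, while Vim alone was at 1944 to 6776 TPM. Epithelial markers, at most 6.09 TPM in sum, were at 1.17 to 1.62 TPM with DMSO and 2.78 to 3.88 TPM with torin1 in WT, and endothelial markers at 0.240 to 0.482 TPM with DMSO and 1.42 to 2.33 TPM with MK-8722 in WT. The part of these marker levels in the differences between genotypes and with the drugs was not tested. Prkaa1 transcripts were read at 65.6 to 84.5 CPM (counts relative to the whole library, not corrected for length) in all libraries, so RNA levels do not check the genotype labels. In bulk RNA, fewer cells expressing a gene and less RNA of it per cell cannot be told apart.

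Levels between genes are compared here in TPM alone. Csf1, the growth factor for macrophages, was the most abundant, with group means of 107 to 297 TPM, followed by Cxcl12 at 44.4 to 199 TPM. Ccl2 and Ccl7, which attract monocytes, had group means of 11.2 to 40.6 and 1.48 to 5.83 TPM. Tnfaip3 reached 9.09 to 23.3 TPM, Lif 3.55 to 6.28 TPM and Cxcl1, a neutrophil attractant, 0.882 to 2.72 TPM. The widest span belonged to Tnfaip2, from 0.665 TPM in the lowest library to 58.6 TPM in the highest, an 88.1-fold range. Il6 and Cxcl5 stayed at or below 0.340 and 0.392 TPM in every library.

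**Figure D1:**
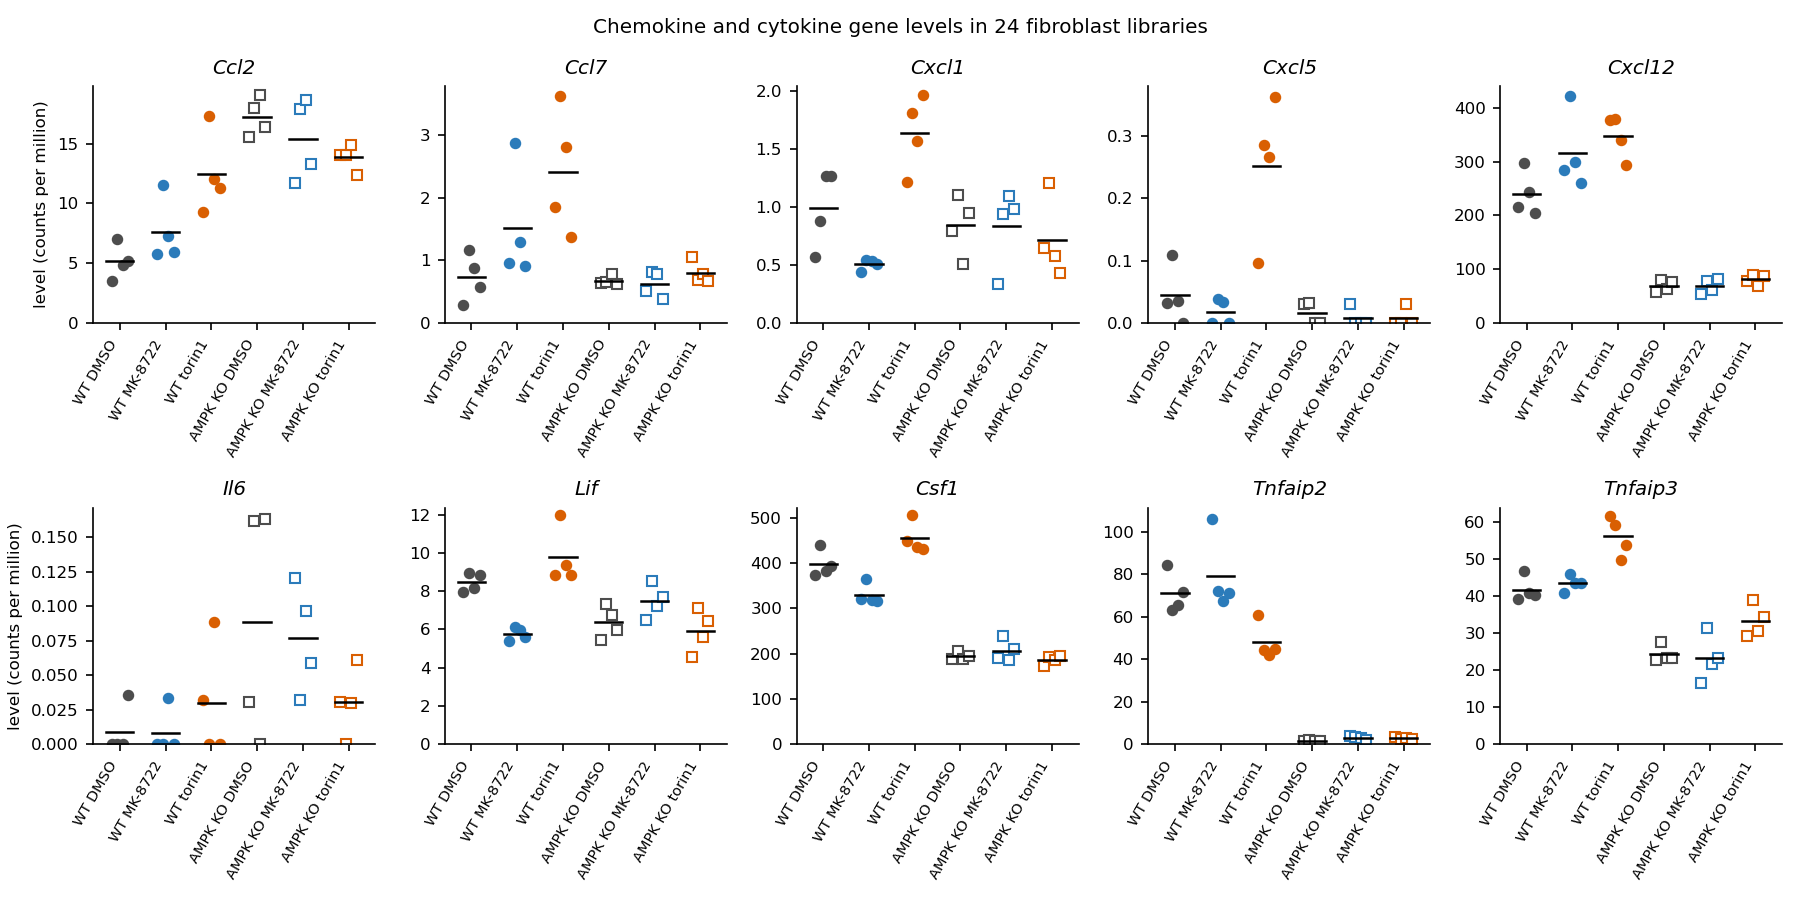
Level of each of the 10 genes in CPM (vertical axes, each from 0 and scaled to its gene) in the 6 groups, with 1 symbol per library in passage order, filled circles for WT and open squares for AMPK KO, and a bar at the mean of 4. Tnfaip2, Cxcl12 and Csf1 lie lower in every AMPK KO library than in any WT library, and Ccl2 has its highest mean in AMPK KO with DMSO.

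The order of the 6 groups differed from gene to gene. In TPM, Cxcl12, Csf1 and Tnfaip2 had all 3 WT groups above all 3 AMPK KO groups, without overlap between the lowest WT and the highest AMPK KO group. Ccl2 had the opposite order of genotypes, with AMPK KO DMSO at the top and WT DMSO at the bottom, and each group overlapped its neighbour. Tnfaip3 was highest in WT torin1, which stood clear of the next group, and AMPK KO torin1 came just after WT DMSO, with overlap. For Ccl7, Cxcl1 and Lif, WT torin1 had the highest mean, and all neighbouring groups in the order overlapped.

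The genes lie on 6 chromosomes, 2 pairs of them close together. Positions are on GRCm38. Ccl2 (chr11:82035571-82037453) and Ccl7 (chr11:82045712-82047525), both on the plus strand, are separated by 8258 bases. Cxcl5 (chr5:90759360-90761624) and Cxcl1 (chr5:90891241-90893115) lie 129616 bases apart. Csf1 is at chr3:107741048-107760469 on the minus strand, Cxcl12 at chr6:117168535-117181367, Il6 at chr5:30013114-30019981, Lif at chr11:4257557-4272514, Tnfaip2 at chr12:111442469-111455018 and Tnfaip3 at chr10:19000910-19015657 on the minus strand. Where no strand is given, the gene is on the plus strand.

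Promoter windows from 250 bases before to 50 bases after the annotated start were at hand for 7 of the genes from RefSeq on GRCm38.p6, among which Tnfaip3 had a second window without a match. They were searched on both strands for an NF-kappaB type motif (GGANTTTCC), for the TFEB-binding CLEAR motif (TCACGTGA) and for the AP-1 type motif (TGANTCA). Over 32851 such windows, 1.25% hold the first, 0.974% the second and 7.81% the third. The NF-kappaB type letters were found near the start of 5 of the 7 genes, namely Csf1, Il6, Cxcl1, Tnfaip3 and Tnfaip2. The stretches that hold them are printed, and that of Lif to show its AP-1 type match. Looser forms of the NF-kappaB type motif were not searched for and would not be marked. Matches are in capitals, and each stretch is read along the gene's own strand:
Csf1, chr3:107760585-107760653, minus strand: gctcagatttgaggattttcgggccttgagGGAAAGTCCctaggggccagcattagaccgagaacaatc
Il6, chr5:30013041-30013109, plus strand: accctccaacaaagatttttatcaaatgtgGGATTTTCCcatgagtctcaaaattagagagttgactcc
Cxcl1, chr5:90891145-90891213, plus strand: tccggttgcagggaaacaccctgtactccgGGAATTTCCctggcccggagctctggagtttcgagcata
Tnfaip3, chr10:19015411-19015547, minus strand: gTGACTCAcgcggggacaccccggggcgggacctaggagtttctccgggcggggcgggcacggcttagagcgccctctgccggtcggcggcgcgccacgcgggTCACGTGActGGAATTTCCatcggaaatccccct
Lif, chr11:4257318-4257376, plus strand: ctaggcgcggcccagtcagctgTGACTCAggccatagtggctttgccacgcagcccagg
Tnfaip2, chr12:111442564-111442592, plus strand: gtccgccagcGGATTTTCCgcggttgcgg

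In Tnfaip3, all 3 motifs were present, without overlap, with the CLEAR letters 34 to 27 bases and the NF-kappaB type letters 24 to 16 bases before the start used by RefSeq. The gene as placed above starts further upstream, so this stretch lies inside it, with the matches outside annotated exons. Tnfaip3 was the one gene of the 7 with a CLEAR match. The NF-kappaB type matches lay 43 to 35 bases before the start in Il6 and 70 to 62 bases before it in Cxcl1. Il6 also held an AP-1 type match, TGAGTCA, 249 to 243 bases before the start and outside the stretch printed. In Csf1 the match, 154 to 146 bases before the start, reads on the opposite strand. The Tnfaip2 match, 87 to 79 bases before the start used by RefSeq, falls in an exon of the annotation. Lif held an AP-1 type match alone, and Cxcl12 held none of the 3. A match of letters is a description and no evidence of binding in these cells.

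With DMSO, AMPK KO MEFs had 3.37 times more Ccl2 RNA than WT MEFs and less of 5 other genes. Tnfaip2 was 43.9-fold lower, Cxcl12 3.48-fold, Csf1 2.04-fold, Tnfaip3 1.72-fold and Lif 1.33-fold. A gene was called changed at a Benjamini-Hochberg adjusted p under 0.05 over all genes tested, by the quasi-likelihood test of edgeR, and a fold change of at least 1.2. By this rule 1 of the 8 genes was called higher and 5 were called lower in AMPK KO, where 30.9% of all genes tested were called higher and 26.0% lower. Their median log2 fold change was -0.59, against 0.02 over all genes tested.

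Ccl2 was read at 3.48, 7.06, 4.84 and 5.19 CPM in WT DMSO, at passages 12 to 15 in that order, and at 15.6, 18.0, 19.0 and 16.4 CPM in AMPK KO DMSO at passages 16 to 19. Every AMPK KO library was above every WT library, with a log2 change of 1.75 (SE 0.22, edgeR adjusted p = 1.43e-07). Its neighbour Ccl7 did not share this pattern. Ccl7 had 0.727 ± 0.383 CPM in the 4 WT and 0.672 ± 0.0725 CPM in the 4 AMPK KO libraries (means ± SD). Its log2 change was -0.09 (SE 0.42, edgeR adjusted p = 0.853), and 0.05 scaled by library size alone (edgeR adjusted p = 0.93). In WT DMSO the Ccl7 levels rest on 9 to 32 counts per library.

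Tnfaip2, a TNF-induced gene whose protein is linked to membrane protrusions, was read at 84.6, 63.2, 65.8 and 71.6 CPM in WT DMSO. The same gene had 1.53, 1.97, 1.65 and 1.34 CPM in AMPK KO DMSO. The groups were far apart, at a log2 change of -5.45 (SE 0.19, edgeR adjusted p = 1.72e-17). Cxcl12, the ligand of Cxcr4 that keeps blood stem cells in their niche, was read at 215, 298, 243 and 205 CPM in WT libraries and at 57.9, 79.1, 62.8 and 76.0 CPM in those of AMPK KO (log2 change -1.80, SE 0.15, edgeR adjusted p = 2.63e-10). Csf1 had 374, 440, 382 and 394 CPM in WT libraries and 189, 207, 189 and 196 CPM in those of AMPK KO, again without overlap (log2 change -1.03, SE 0.07, edgeR adjusted p = 6.9e-12).

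Tnfaip3 and Lif, a cytokine of the interleukin 6 family that keeps mouse embryonic stem cells undifferentiated, differed less. Tnfaip3 fell from 41.8 ± 3.38 to 24.3 ± 2.24 CPM (means ± SD of 4 libraries), a log2 change of -0.78 (SE 0.12, edgeR adjusted p = 6.06e-06). Lif fell from 8.46 ± 0.489 to 6.37 ± 0.83 CPM, a log2 change of -0.41 (SE 0.12, edgeR adjusted p = 0.00549). Neither gene overlapped between the genotypes. Cxcl1 was at 0.992 ± 0.337 CPM (WT) and 0.838 ± 0.252 CPM (AMPK KO), which did not pass the test (edgeR adjusted p = 0.534). The 6 calls were kept whichever single library of the groups compared was left out.

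Il6 and Cxcl5 were described by their counts. Il6, a cytokine that drives the acute phase response, had 11 counts over the 4 AMPK KO DMSO libraries, 10 over AMPK KO MK-8722 and 4 over AMPK KO torin1, against 1, 1 and 4 in the WT groups in the same order. Single AMPK KO DMSO libraries held 1, 5, 0 and 5 counts. Without the filter on low counts, the difference of Il6 between genotypes in DMSO passed the edgeR test by a narrow margin (adjusted p = 0.0475). Cxcl5, a neutrophil attractant, had 31 counts over WT torin1, with 3, 9, 9 and 10 in its libraries by passage. In WT DMSO it had 5 counts, and in each other group 1 or 2. All WT torin1 libraries but the one of passage 12 were above every other library, and without the filter the torin1 difference in WT passed (edgeR adjusted p = 0.00593). No fold is given at such counts.

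In WT MEFs, MK-8722 moved these genes in both directions. Ccl7 and Cxcl12 rose 2.09-fold and 1.32-fold, while Cxcl1, Lif and Csf1 fell 1.94-fold, 1.46-fold and 1.2-fold. Thus 2 of the 8 genes were called higher and 3 lower, where 10.0% of all genes tested were called higher and 5.66% lower. The median of the 8 was 0.11 on the log2 scale, against -0.00 over all genes.

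The falls of Lif and Csf1 were the clearest. Lif was at 7.94, 8.92, 8.14 and 8.83 CPM with DMSO and at 5.41, 6.11, 5.95 and 5.62 CPM with MK-8722, by passage. No library overlapped, and the log2 fold change was -0.55 (SE 0.13, edgeR adjusted p = 0.00194). Csf1 was at 321, 364, 320 and 317 CPM with MK-8722, all below the DMSO libraries given above (log2 change -0.27, SE 0.07, edgeR adjusted p = 0.0065). Lif was called whichever library was left out. The Csf1 change is just past the fold required and fell short of it without WT DMSO replicate 2 (-0.23) and without WT MK-8722 replicate 2, 3 or 4 (-0.25, -0.25 and -0.26).

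Calls on the other 3 genes were less firm in the fit without passage. With passage as a block all 3 were called, Cxcl1 at -0.94, Ccl7 at 1.03 and Cxcl12 at 0.39 on the log2 scale. Their edgeR adjusted p in that fit was 0.0241, 0.0017 and 8.88e-05. Cxcl1 was at 0.565, 0.878, 1.26 and 1.26 CPM with DMSO and 0.439, 0.545, 0.532 and 0.511 CPM with MK-8722, groups that do not overlap, with a log2 change of -0.96 (SE 0.36, edgeR adjusted p = 0.0498). It lost the call without any 1 library of the compared groups other than WT DMSO replicate 4, at -1.02 to -0.83 on the log2 scale (edgeR adjusted p = 0.0589 to 0.131). Ccl7 was at 0.283, 1.17, 0.878 and 0.576 CPM with DMSO and 0.95, 2.88, 1.3 and 0.903 CPM with MK-8722, with overlap (log2 change 1.06, SE 0.39, edgeR adjusted p = 0.0455). Without WT MK-8722 replicate 1, the library of passage 13, its log2 fold change was 0.55 (edgeR adjusted p = 0.308). The Ccl7 call was also lost without WT DMSO replicate 1, 3 or 4 (1.16, 0.96 and 0.78 on the log2 scale) or WT MK-8722 replicate 4 (1.12).

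Cxcl12 rose from the WT DMSO levels above to 284, 422, 299 and 261 CPM, with overlap (log2 change 0.40, SE 0.15, edgeR adjusted p = 0.0452). Without WT MK-8722 replicate 1 the change was 0.23 (edgeR adjusted p = 0.241), and the call was also lost without WT DMSO replicate 1, 3 or 4 (0.39, 0.32 and 0.35) or WT MK-8722 replicate 4 (0.42). Ccl2, at 5.74, 11.6, 7.25 and 5.89 CPM with MK-8722, did not pass (log2 change 0.57, SE 0.23, edgeR adjusted p = 0.0676). It passed without WT MK-8722 replicate 2 or 3 (0.68 and 0.67) and without WT DMSO replicate 2 (0.74), as well as in DESeq2 (0.56) and without a filter on low counts (0.55). With passage as a block Ccl2 passed too (0.56, edgeR adjusted p = 0.000262). Tnfaip2 and Tnfaip3 gave log2 fold changes of 0.15 and 0.06 and did not pass. The WT DMSO libraries serve as controls in this comparison, in that of torin1 and in that of genotypes, and the AMPK KO DMSO libraries likewise, so these comparisons are not independent.

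In AMPK KO MEFs, MK-8722 changed 1 of the 8 genes, Tnfaip2, which was called higher, where 0.866% of all genes tested were called higher and 0.695% lower. Tnfaip2 was read at 3.76, 3.49, 2.93 and 2.16 CPM, all above AMPK KO DMSO, a 1.90-fold rise (log2 change 0.92, SE 0.25, edgeR adjusted p = 0.0472). This call was lost without any 1 library of the compared groups other than AMPK KO MK-8722 replicate 1, with adjusted p of 0.058 to 0.13. It was kept with passage as a block (log2 change 0.92, SE 0.13, edgeR adjusted p = 8.79e-05). Within each passage, MK-8722 libraries held 1.61 to 2.47 times the Tnfaip2 level of the DMSO library. The Tnfaip2 level stayed far under that of WT. Lif, which fell in WT, had a log2 change of 0.23 (SE 0.12, edgeR adjusted p = 0.362) in AMPK KO, and Csf1 of 0.08 (SE 0.07, edgeR adjusted p = 0.629). The median of the 8 was -0.00 on the log2 scale, and that of all genes 0.00.

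The effects of MK-8722 differed between genotypes for Lif and Csf1 by a test of the interaction. The interaction log2 value, positive where the change is more upward in AMPK KO, was 0.78 for Lif (SE 0.18, edgeR adjusted p = 0.00348) and 0.35 for Csf1 (SE 0.10, edgeR adjusted p = 0.0189). Lif RNA in single WT passages was 0.636 to 0.731 times that of DMSO, and in single AMPK KO passages 1.07 to 1.29 times. These were 2 genes called higher and 0 called lower of the 8, where 5.12% of all genes were called higher and 7.66% lower, with medians of 0.11 for the 8 and 0.00 for all. Without passage in the fit, none of the other 6 passed, with Tnfaip2 (0.77, SE 0.28, edgeR adjusted p = 0.0641) and Ccl2 (-0.74, SE 0.30, edgeR adjusted p = 0.0985) nearest to the threshold. With passage as a block, Ccl2 (-0.74), Ccl7 (-1.17), Cxcl12 (-0.40) and Tnfaip2 (0.78) were called too (edgeR adjusted p = 0.000305, 0.0165, 0.0046 and 0.000234). Calls over all genes tested were 2023 without passage and at most 2785 under any alternative, that block included. Without AMPK KO MK-8722 replicate 3, Csf1 was at 0.27 and lost its call (edgeR adjusted p = 0.058). Tnfaip2 gained one without AMPK KO MK-8722 replicate 1 (0.93), WT MK-8722 replicate 2 (0.94) or WT DMSO replicate 2 (0.84), and in DESeq2, without a filter or with at least 10 counts in every library (0.78, 0.79 and 0.78), and Ccl2 without WT DMSO replicate 2 (-0.91).

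**Figure D2:**
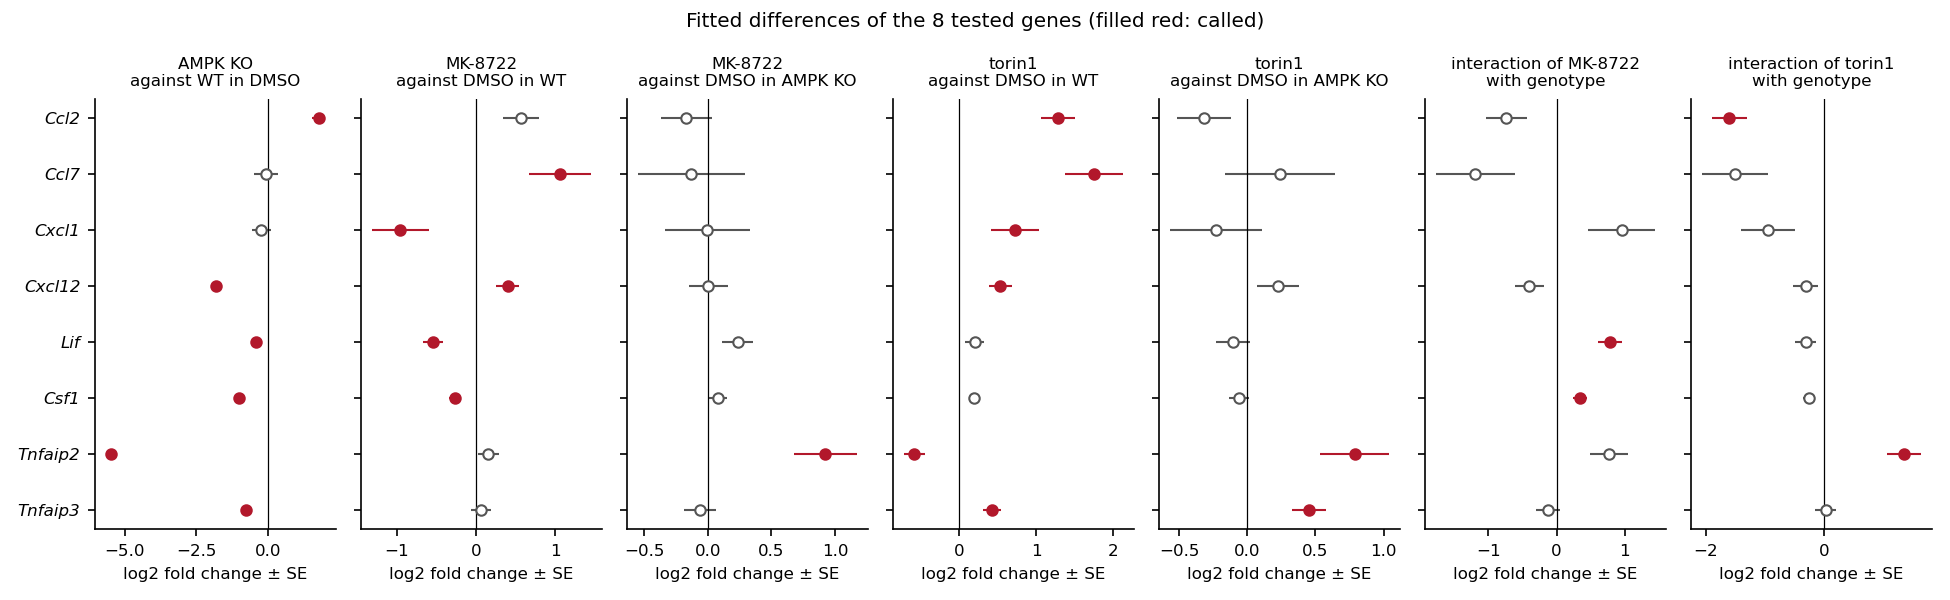
Log2 fold change (horizontal axes, each on its own scale) of the 8 tested genes in 7 comparisons, as the estimate and its SE from edgeR, with filled red points where the gene was called. In the WT torin1 panel 5 genes lie called to the right of 0 and Tnfaip2 called to the left, whereas in AMPK KO Tnfaip2 and Tnfaip3 alone are called, both to the right.

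Torin1 raised the chemokine genes in WT MEFs. Ccl7 rose 3.36-fold, Ccl2 2.44-fold, Cxcl1 1.65-fold and Cxcl12 1.45-fold, and Tnfaip3 rose 1.35-fold, while Tnfaip2 fell 1.49-fold. These were 5 of 8 called higher and 1 lower, against 26.6% and 21.1% of all genes tested. The median log2 fold change of the 8 was 0.48, and that of all genes 0.04.

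Ccl2 reached 9.31, 17.3, 12.1 and 11.3 CPM with torin1, all above the WT DMSO libraries (log2 change 1.29, SE 0.22, edgeR adjusted p = 2.12e-05). Ccl7 reached 1.85, 3.62, 2.81 and 1.38 CPM, likewise without overlap, on 38 to 114 counts per library (log2 change 1.75, SE 0.38, edgeR adjusted p = 0.000297). Within each passage, torin1 libraries held 2.17 to 2.67 times the Ccl2 level of the DMSO library and 2.39 to 6.56 times its Ccl7 level. Passage 13, the highest for both genes with DMSO, was also the highest with MK-8722 and with torin1.

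Cxcl12 was at 377, 379, 341 and 294 CPM with torin1, where the lowest library lay under the highest DMSO library (log2 change 0.54, SE 0.15, edgeR adjusted p = 0.00305). Cxcl1 was at 1.22, 1.81, 1.57 and 1.96 CPM, also with overlap (log2 change 0.73, SE 0.31, edgeR adjusted p = 0.0482). The Cxcl1 call was lost without WT torin1 replicate 1, 2 or 3 and without WT DMSO replicate 2 or 4, at adjusted p of 0.06 to 0.177. It was kept with passage as a block (log2 change 0.74, SE 0.27, edgeR adjusted p = 0.0193). Single passages held 1.24 to 2.15 times the Cxcl1 level of the DMSO library. Tnfaip3 rose to 61.8, 59.2, 49.9 and 54.0 CPM, above all DMSO libraries (log2 change 0.43, SE 0.12, edgeR adjusted p = 0.00365). Tnfaip2 fell to 60.8, 44.4, 42.0 and 44.7 CPM, below all DMSO libraries (log2 change -0.57, SE 0.13, edgeR adjusted p = 0.000755).

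Csf1 and Lif were not called. Csf1 was at 448, 506, 437 and 432 CPM with torin1, a log2 change of 0.20 (SE 0.07, edgeR adjusted p = 0.019) that fell short of the fold required. With an offset for the length of the transcripts in use the Csf1 change was 0.37, and scaled by library size alone 0.30, both called. Lif was at 8.83, 12.0, 9.37 and 8.85 CPM (log2 change 0.21, SE 0.12, edgeR adjusted p = 0.146), and was called at 0.31 by library size alone. That scaling moved the median log2 change of all genes to 0.14 with torin1 in WT, 0.12 with torin1 in AMPK KO and 0.15 between genotypes, which the Csf1 and Lif values include. It also moved the share of calls that were higher, from 55.8 to 67.5% with torin1 in WT, from 59.5 to 68.0% with torin1 in AMPK KO, from 54.3 to 67.4% between genotypes, from 55.5 to 45.1% with MK-8722 in AMPK KO and from 58.7 to 42.1% for the torin1 interaction (48.5% with DESeq2 size factors).

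In AMPK KO MEFs, torin1 raised Tnfaip2 and Tnfaip3 and none of the chemokine genes was called. These 2 of 8 called higher and 0 lower stand against 25.9% and 17.6% of all genes tested, and the median of the 8 was 0.08 against 0.06 over all genes. Tnfaip3 was at 22.9, 27.7, 23.4 and 23.4 CPM with DMSO and at 29.3, 39.0, 30.7 and 34.4 CPM with torin1, without overlap (log2 change 0.45, SE 0.12, edgeR adjusted p = 0.00325). Tnfaip2 was at 3.35, 2.67, 2.83 and 2.38 CPM, above all DMSO libraries (log2 change 0.79, SE 0.25, edgeR adjusted p = 0.00997). Ccl2 was at 14.0, 14.1, 14.9 and 12.4 CPM, all below the AMPK KO DMSO libraries, but did not pass (log2 change -0.32, SE 0.20, edgeR adjusted p = 0.179). In a fit of these 8 libraries alone it was called lower (-0.36), and likewise with passage as a block (-0.31, edgeR adjusted p = 0.00206). Cxcl12 gave 0.23 (SE 0.15), Ccl7 0.24 (SE 0.41), Lif -0.10 and Csf1 -0.06, none of which passed.

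The torin1 effect differed between genotypes for Ccl2 and for Tnfaip2. The interaction was -1.60 for Ccl2 (SE 0.30, edgeR adjusted p = 0.00143), which rose in every WT passage and was at 0.756 to 0.902 times its DMSO level in the AMPK KO passages. For Tnfaip2 it was 1.36 (SE 0.28, edgeR adjusted p = 0.00372), with 0.625 to 0.719 times the DMSO level across WT passages and 1.35 to 2.20 times across those of AMPK KO. So 1 gene was called higher and 1 lower, where 4.15% and 2.92% of all genes were called, with a median of -0.31 for the 8 and 0.01 for all. Tnfaip3, at 0.03 (edgeR adjusted p = 0.957) and at -0.01 scaled by library size alone (edgeR adjusted p = 0.983), rose in both genotypes. Ccl7 was at -1.51 (SE 0.56, edgeR adjusted p = 0.0883) and was called without WT DMSO replicate 2 (-1.83). With passage as a block, Ccl7 (-1.52), Cxcl12 (-0.32) and Lif (-0.31) were called too (edgeR adjusted p = 0.00306, 0.0263 and 0.0473). Calls over all genes tested grew from 1119 to 1861 with that block. Csf1, at -0.26 (SE 0.10, edgeR adjusted p = 0.109), was called without WT torin1 replicate 1, AMPK KO DMSO replicate 3 or AMPK KO torin1 replicate 2 (-0.36, -0.34 and -0.35).

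The transcripts behind Csf1 and Cxcl12 changed their shares with torin1. Transcripts with a mean of at least 1 TPM are described, 6 of 7 for Csf1 and 4 of 4 for Cxcl12. These transcripts were singled out after their values had been seen and are given without a test, and estimates for transcripts that share exons are uncertain. Csf1-201 and Csf1-203 have the same coding length of 1656 bases and differ in the last exon, which is 2098 bases long in Csf1-201 (chr3:107741048-107743145) and 246 bases long in Csf1-203 (chr3:107745595-107745840).

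In WT, Csf1-203 was at 49.3 ± 5.25 TPM with DMSO, 42.3 ± 5.89 TPM with MK-8722 and 126 ± 9.56 TPM with torin1 (SD, n = 4 each). It made up 23.1 ± 0.89% of Csf1 TPM with DMSO, 23.1 ± 1.44% with MK-8722 and 42.4 ± 2.78% with torin1. The share of Csf1-201 was 41.8% with DMSO and 27.1% with torin1. In AMPK KO, Csf1-203 was at 22.6 ± 2.64% of Csf1 TPM with DMSO and 28.9 ± 0.931% with torin1, without overlap between the groups (19.4 to 25.8% and 27.6 to 29.6%). In TPM, Csf1 was highest with torin1 in AMPK KO (120 ± 5.87 TPM, against 107 ± 5.03 TPM with DMSO), whereas in CPM, which does not correct for length, torin1 was at 187 ± 9.97 and DMSO at 195 ± 8.72.

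Cxcl12 shifted in both genotypes. Cxcl12-202 fell from 53.5 ± 0.812% of Cxcl12 TPM with DMSO to 45.2 ± 0.496% with torin1 in WT, and from 65.0 ± 3.02% to 51.5 ± 1.18% in AMPK KO. Cxcl12-203 went from 29.3 ± 0.672% to 35.2 ± 1.14% in WT and from 21.9 ± 1.4% to 30.5 ± 1.15% in AMPK KO. MK-8722 left these shares nearer to DMSO, with Cxcl12-203 at 31.6 ± 1.53% in WT and 22.8 ± 0.886% in AMPK KO. In WT the Cxcl12-203 share with MK-8722, at 30.5 to 33.9%, still lay above that with DMSO, at 28.3 to 29.7%, without overlap. For Tnfaip2, 2 of 11 annotated transcripts reached a mean of 1 TPM over the 24 libraries. In AMPK KO, Tnfaip2-201 was below that level, at means of 0.579 TPM with DMSO, 0.919 TPM with MK-8722 and 0.982 TPM with torin1. There it made up 58.8 ± 7.01% of Tnfaip2 TPM with DMSO, 45.3 ± 19.1% with MK-8722 and 38.3 ± 4.65% with torin1. The MK-8722 libraries, at 21.6 to 67.4%, overlapped those with DMSO (53.2 to 68.5%), on 32.5 to 83.1 estimated reads per library over the 3 groups.

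**Figure D3:**
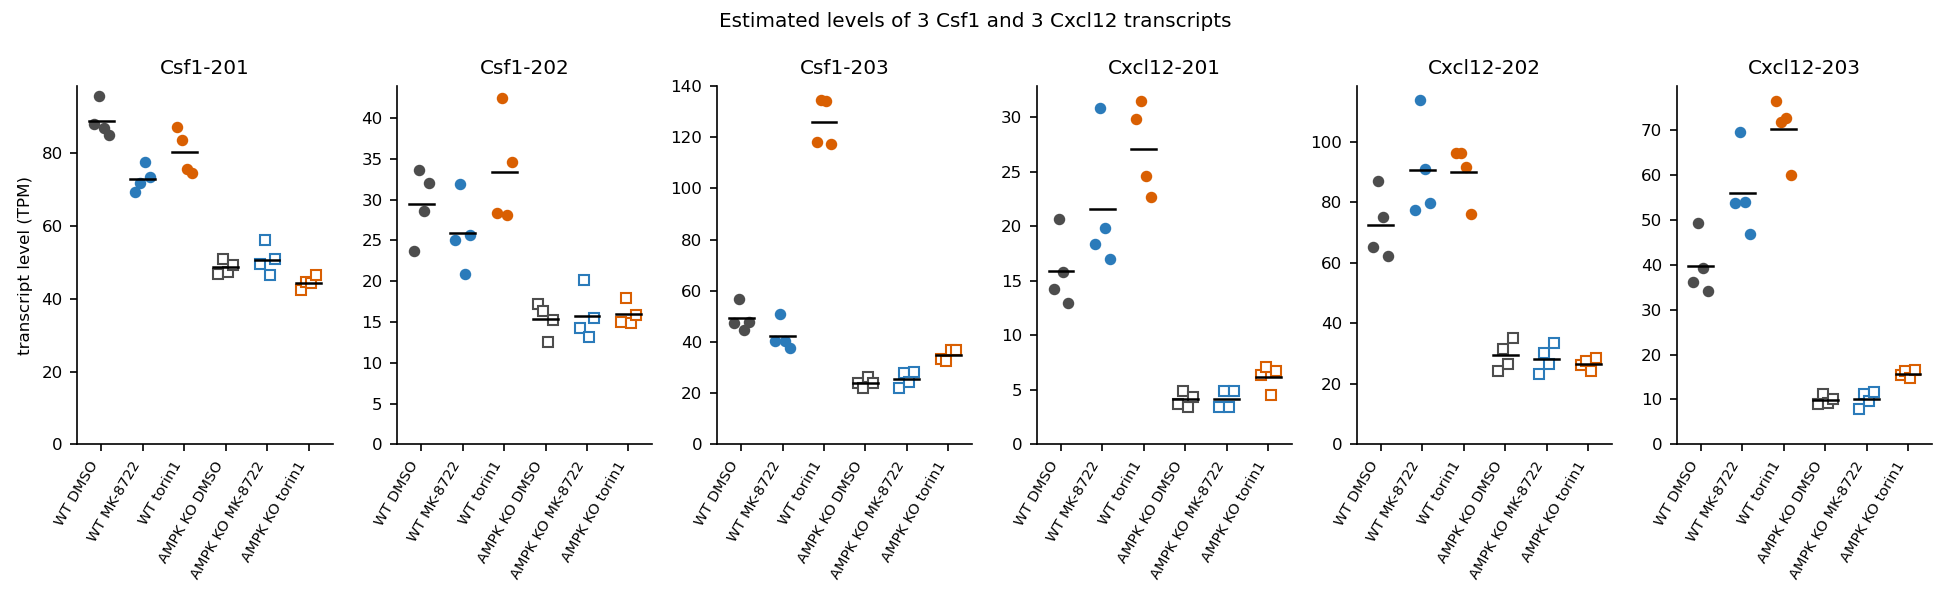
Estimated level in TPM (vertical axes, each from 0 on its own scale) of 3 Csf1 and 3 Cxcl12 transcripts in the 6 groups, with 1 symbol per library and a bar at the mean of 4. Csf1-203 stands at 117 to 134 TPM with torin1 in WT, far above its level in any other group, while Csf1-201 does not rise with torin1.

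Passage moved several of the genes within each line. With the 3 treatments of a passage pooled, 4 of the 8 genes were called for passage in WT, where 11.5% of all genes tested were called, and 5 of the 8 in AMPK KO, where 7.28% were. Each passage label marks 1 library per treatment, and libraries of a passage may share a culture, so the test compares these particular passages with the spread within them. In WT, passage 13 was highest for Ccl2, Ccl7 and Cxcl12, and passage 12 for Tnfaip2.

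Ccl2 averaged 12.0 CPM at passage 13 and 6.18 CPM at passage 12, a 1.95-fold range on the fitted scale (edgeR adjusted p = 2.06e-05). Ccl7 ranged 2.65-fold (edgeR adjusted p = 0.000619), and Cxcl12 1.45-fold between 366 CPM at passage 13 and 253 CPM at passage 15 (edgeR adjusted p = 0.000305). Tnfaip2 ran differently, with 83.9 CPM at passage 12 and a 1.43-fold range (edgeR adjusted p = 5.01e-06). The passage range of Ccl2 and Ccl7 in WT was larger than the change with MK-8722, which had the same direction in each passage. Relative to the DMSO library of the same passage, MK-8722 libraries had 1.14 to 1.65 times as much Ccl2, 1.48 to 3.36 times as much Ccl7 and 1.23 to 1.42 times as much Cxcl12, higher in 4 of 4 passages for each. Cxcl1 was at 0.405 to 0.776 and Csf1 at 0.804 to 0.860 times the DMSO level, lower in 4 of 4.

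In AMPK KO, Tnfaip3 ranged 1.44-fold between passages and was highest at passage 17 (edgeR adjusted p = 0.00312), as was Lif with a 1.40-fold range (edgeR adjusted p = 0.00931). Cxcl12 ranged 1.30-fold, with passages 17 and 19 high in every treatment (edgeR adjusted p = 0.00315). Ccl2 had a 1.27-fold range (edgeR adjusted p = 0.0257) and lost its call without AMPK KO DMSO replicate 3 or AMPK KO MK-8722 replicate 1, 2 or 4, at adjusted p of 0.05 to 0.0733. Tnfaip2 had a 1.46-fold range (edgeR adjusted p = 0.0472), a call lost when any of 10 of the 12 libraries was left out, at adjusted p of 0.0601 to 0.273. Csf1 passed the adjusted p in both lines, at ranges of 1.15-fold and 1.16-fold that are below the fold required.

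**Figure D4:**
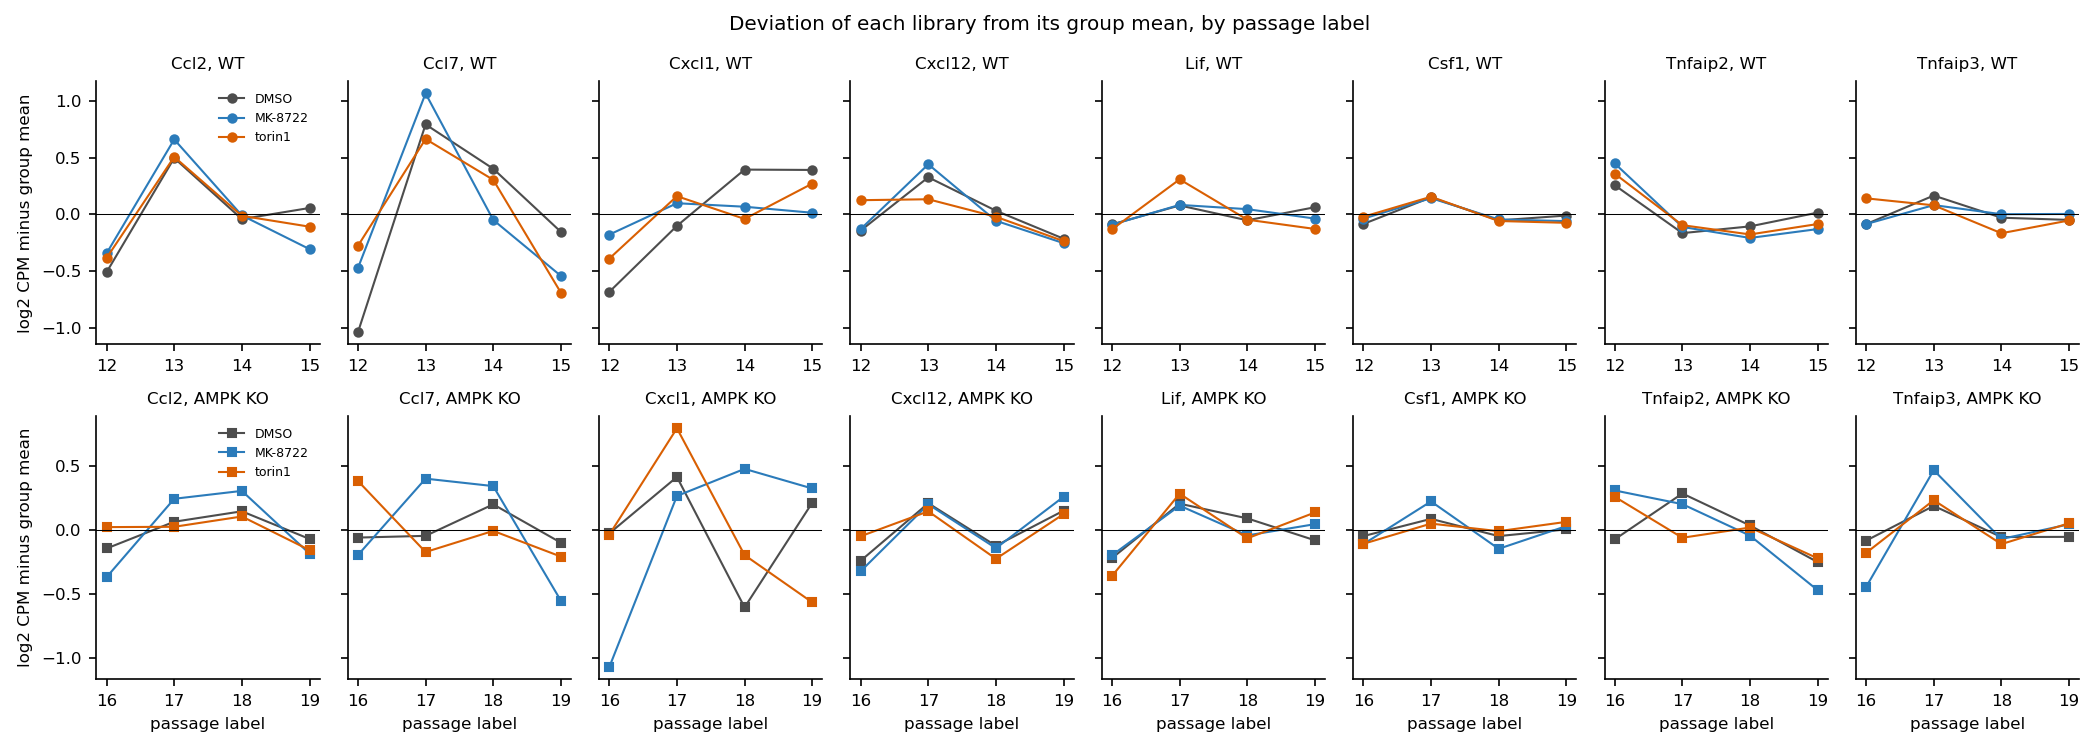
Log2 CPM of each library minus the mean of its group (vertical axes, shared within a row) against the passage label, with 1 line per treatment, for WT (upper row) and AMPK KO (lower row). In WT the 3 lines for Ccl2, Ccl7 and Cxcl12 share a high point at passage 13, apart from Cxcl12 with torin1, in which passages 12 and 13 are level, and the 3 lines for Tnfaip2 share a high point at passage 12.

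Within groups, the genes other than Tnfaip2 deviated together. Over the 24 libraries, deviations of Ccl2 and Ccl7 from their group means had a Pearson r of 0.874. All 21 pairs without Tnfaip2 had a positive r, from 0.213 to 0.874 with a median of 0.501, and all 7 pairs with Tnfaip2 a negative one, from -0.364 to -0.0919. The points share libraries, scaling and passages, and r was not computed over pairs of other genes, so these values are given as a description.

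Genes of the surrounding pathway were counted from 8 lists of 90 genes, of which 71 could be tested. In AMPK KO against WT with DMSO, 40 of the 71 were called higher and 8 lower, with a median log2 fold change of 0.36, where 30.9% of all genes were called higher and 26.0% lower. Of 10 other chemokine genes 8 were called higher and 0 lower, with Cxcl16, a membrane-bound chemokine, at 8.68 ± 0.828 CPM against 0.599 ± 0.193 CPM (log2 change 3.87, SE 0.21). Il34, the other ligand of the Csf1 receptor, was 3.42 higher on the log2 scale (SE 0.22), whereas Csf1 fell. Of 11 inhibitors and feedback genes of NF-kappaB 9 were called higher, led by Bcl3 (1.75, SE 0.18) and Traf1 (1.63, SE 0.10), and Tnfaip3, of like function, was lower. The subunit gene Nfkb2 rose from 219.1 ± 3.81 to 504 ± 32.1 CPM (log2 change 1.2, SE 0.06). Among the genes that fell were the receptor gene Osmr (-1.73, SE 0.18) and Ptgs2, which encodes the inducible cyclooxygenase (-1.56, SE 0.19).

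With MK-8722 in WT, 7 of the 71 genes were called higher and 11 lower (median -0.05), where 10.0% and 5.66% of all genes were. The interleukin 1 receptor gene Il1r1 fell from 17.6 ± 3.9 to 7.06 ± 1.16 CPM (log2 change -1.32, SE 0.15), and 5 of 11 inhibitor and feedback genes fell, among them Traf1 (-1.09, SE 0.12) and Nfkbie (-0.74, SE 0.15). Cxcl10, an interferon-induced chemokine gene, rose by 1.01 (SE 0.12), Tslp by 1.01 (SE 0.20), Ptgs2 by 1.14 (SE 0.17) and Zfp36, whose product speeds the decay of cytokine messenger RNAs, by 0.69 (SE 0.07) on the log2 scale. In AMPK KO, 0 were called higher and 3 lower, against 0.866% and 0.695% of all genes, including Cxcl10 (-0.47, SE 0.11). The interaction was called for Cxcl10 (-1.48, SE 0.17), Il1r1 (1.24, SE 0.20), Traf1 (1.37, SE 0.16) and Zfp36 (-0.83, SE 0.10) among 5 higher and 4 lower, where 5.12% and 7.66% of all genes were called.

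With torin1, 27 of the 71 were called higher and 15 lower in WT (median 0.32), where 26.6% and 21.1% of all genes were. In AMPK KO 17 were called higher and 12 lower (median 0.05), where 25.9% and 17.6% of all genes were. Nfkb2 rose in both lines, by 0.66 in WT (SE 0.06) and 0.42 in AMPK KO (SE 0.06), as did Relb (0.63, SE 0.09, and 0.45, SE 0.08) and Traf1 (1.24, SE 0.10, and 0.55, SE 0.09). Elavl1, whose product stabilises messenger RNAs with AU-rich ends, fell by 0.89 in WT (SE 0.04) and by 0.71 in AMPK KO (SE 0.04). Cebpd, a transcription factor of the acute phase response, rose by 1.45 in WT (SE 0.18), with an interaction of -1.44 (SE 0.26). Among 4 interactions called higher and 9 lower, where 4.15% and 2.92% of all genes were, stood also Ackr3, a scavenging receptor for Cxcl12 (-1.63, SE 0.29), Bcl3 (-0.97, SE 0.25) and Traf1 (-0.69, SE 0.14).

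The genes most alike in pattern were found by Pearson r of log2 CPM over the 24 libraries among 10126 genes with a mean of at least 5 CPM. For Cxcl12 these were Fat1 (r = 0.993) and Tiam2 (0.989), for Tnfaip2 Zfp651 (0.991) and Adam19 (0.990), and for Csf1 Fbn1 (0.983) and Fnbp1l (0.974). Tnfaip3 was most like Vim (0.958) and B4galt2 (0.952), and Ccl2 most like Nudt8 (0.916) and Tmem134 (0.903). For Ccl7 they were Slc35b2 (0.881) and Lifr (0.868), for Lif Nt5c3b (0.863) and Clip2 (0.847), and for Cxcl1 Gse1 (0.786) and again Nt5c3b (0.771). The 24 libraries fall into 2 genotypes, between which Tnfaip2, Cxcl12, Csf1, Ccl2 and Tnfaip3 differed by more, with DMSO, than with any treatment. Ccl7, Cxcl1 and Lif did not.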

How the data were processed

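Reads were aligned by the authors with STAR in the nf-core/rnaseq workflow. The deposited tables, laid out as Salmon writes them, hold estimated counts per gene (not normalized) and, per transcript, effective lengths and TPM, on GRCm38. The workflow's options for molecular identifiers were given by the authors, and their effect on the counts was not tested here. Here the counts were rounded and filtered for low genes by filterByExpr, TMM gave the scaling factors, and edgeR 4.0.16 (R 4.3.3) fitted the mean of each of 6 groups by quasi-likelihood over the 24 libraries, with two-sided tests. CPM used the TMM factors, and log2 CPM a prior count of 2. The common biological coefficient of variation was 0.079. Passage was tested as 3 terms per genotype. Libraries of a group differed by more than sampling noise in all 36 pairs (chi-square per degree of freedom 3.52 to 26.5).

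The genes, pathway lists, markers and motifs were chosen with earlier results of these data known. All 10 genes were named, from pathway lists at most the 2 largest called rises and falls, and as most alike the 2 genes with the highest r. Alternatives were DESeq2 1.42.0 and its size factors, library size alone, other filters, an offset for transcript length, other thresholds, compared libraries alone, passage or replicate number as a block, and leaving out each library in turn. The fitting steps were tested on simulated data. Molecular copies beyond the identifiers were not assessed, so ranges of counts cover counting error only.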

Additional observations from a re-analysis of the deposited data

Results flagged for a closer look

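In 10 of 60 groups of 4 libraries examined, the highest or lowest library stood apart from the other 3, with a gap over the group's range above Dixon's critical value. Chance alone gives this in about 1 in 20 groups of independent, normally distributed values. The 60 groups share libraries and passages, and a count in 1 library alone always gives 1.0, so 10 of 60 cannot be set against that rate. The ratio was 0.879 for Tnfaip2 in WT MK-8722, where replicate 2, of passage 12, held 106 CPM and the others 67.4 to 72.1 CPM, and 0.854 in WT torin1, where replicate 4, also of passage 12, held 60.8 CPM and the others 42.0 to 44.7 CPM. It was 0.898 for Csf1 in WT MK-8722, where replicate 1 held 364 CPM against 317 to 321 CPM, and 0.83 for Lif in WT torin1, where replicate 2 held 12.0 CPM against 8.83 to 9.37 CPM. Tnfaip3 in AMPK KO DMSO gave 0.9, with 27.7 CPM in replicate 2 against 22.9 to 23.4 CPM, and Ccl7 in AMPK KO DMSO gave 0.837, with 0.780 CPM in replicate 4 against 0.622 to 0.647 CPM. Cxcl5 in AMPK KO MK-8722 and AMPK KO torin1 and Il6 in WT DMSO and WT MK-8722 gave 1.0, each from a single count in 1 library.

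In 4 cases the change with a drug differed between genotypes in the test of the interaction. These were Lif with MK-8722 (0.78 on the log2 scale, SE 0.18, edgeR adjusted p = 0.00348), Csf1 with MK-8722 (0.35, SE 0.10, edgeR adjusted p = 0.0189), Ccl2 with torin1 (-1.60, SE 0.30, edgeR adjusted p = 0.00143) and Tnfaip2 with torin1 (1.36, SE 0.28, edgeR adjusted p = 0.00372).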

How the results depend on the processing

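The number of called genes among the 8 depended on several choices. At a fold change of at least 1.5, the count went from 5 to 2 for MK-8722 in WT, from 6 to 3 for torin1 in WT, from 2 to 1 for torin1 in AMPK KO, from 2 to 1 for the MK-8722 interaction, from 4 to 2 for passage in WT and from 5 to 0 for passage in AMPK KO. With an offset for transcript length it was 1 for MK-8722 in WT, 1 for the MK-8722 interaction and 2 for passage in AMPK KO, and with the compared libraries alone it was 3 for MK-8722 in WT. Leaving out 1 library at a time gave 1 to 4 for MK-8722 in WT, 0 to 1 for MK-8722 in AMPK KO, 1 to 4 for the MK-8722 interaction and 3 to 5 for passage in AMPK KO. Apart from the blocks below, other counts stayed within 1.5 times the reported ones. The causes were not tested.

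Whether replicate numbers or passages pair the libraries is not stated in the labels. Deviations from group means correlated best with a library of the same passage in 19 of 24 libraries, and with one of the same replicate number in 6 of 24, and the correlation of same-passage pairs exceeded 0.1 in 6 of 12 WT and 9 of 12 AMPK KO pairs. With passage as a block, 6 genes were called for the MK-8722 interaction and 5 for the torin1 interaction. The added ones were Ccl2 (-0.74), Ccl7 (-1.17), Cxcl12 (-0.40) and Tnfaip2 (0.78) with MK-8722 and Ccl7 (-1.52), Cxcl12 (-0.32) and Lif (-0.31) with torin1. Calls over all 15828 genes tested also grew with this block for the torin1 interaction, from 1119 to 1861. For the MK-8722 interaction they were 2023, and at most 2785 under any alternative, this block included. Ccl2 was also called with MK-8722 in WT (0.56) and with torin1 in AMPK KO (-0.31). With the replicate block, 2 were called for MK-8722 in WT, where Ccl7, Cxcl1 and Cxcl12 were lost, and 0 for MK-8722 in AMPK KO, and Cxcl1 was lost with torin1 in WT. The passage block kept all of these calls, that of Tnfaip2 with MK-8722 in AMPK KO among them. Neither block moved another count of the 8 by more than 1.5 times.

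Of 1587 values of single genes under alternatives, 1427 kept direction and call, 86 lost a call, 35 gained one and 39 changed sign, all 39 on values not called. Cxcl12 with MK-8722 in AMPK KO, at 0.00, was -0.00093 with DESeq2 size factors, -0.018 with library size alone, -0.0051 without a filter, -0.0037 with at least 10 counts in every library, -0.0095 with the length offset, -0.0022 with the compared libraries alone, -0.0040 with the passage block and -0.0016 in DESeq2. Cxcl1 in that comparison was 0.052 with the length offset and 0.037 with the replicate block. With torin1 in AMPK KO, Csf1 was 0.00092 with library size alone and 0.067 with the length offset, and Lif was 0.050 with the length offset. Ccl7 between genotypes was 0.045 with library size alone and 0.013 with the passage block. The torin1 interaction of Tnfaip3 was -0.011 with library size alone, -0.024 with at least 10 counts in every library and -0.045 with the compared libraries alone.

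Leaving out 1 library at a time gave, on the log2 scale, -0.023 to 0.25 for Tnfaip2 with MK-8722 in WT. With MK-8722 in AMPK KO it gave -0.29 to 0.044 for Ccl7, -0.19 to 0.26 for Cxcl1, -0.091 to 0.10 for Cxcl12, -0.0013 to 0.13 for Csf1 and -0.25 to 0.066 for Tnfaip3. The range was -0.39 to 0.19 for Ccl7 between genotypes, -0.30 to 0.019 for the MK-8722 interaction of Tnfaip3 and -0.13 to 0.10 for its torin1 interaction.

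Over all genes tested, called genes with MK-8722 in AMPK KO numbered 247, against 137 with the length offset, 423 by adjusted p alone, 64 at 1.5-fold, 729 with the passage block and 121 to 271 without 1 library. At 1.5-fold, calls over all genes went from 2483 to 833 for MK-8722 in WT, 7540 to 3855 and 6879 to 3146 for torin1 in WT and AMPK KO, 9007 to 5541 between genotypes, 2023 to 681 and 1119 to 305 for the interactions and 1816 to 666 and 1153 to 283 for passage. By adjusted p alone they were 4447 for MK-8722 in WT and 3026 and 2061 for passage. Passage in AMPK KO gave 1846 without a filter, 633 with the length offset and 611 to 1427 without 1 library, and the torin1 interaction 1861 with the passage block. Counts for Ccl7, Cxcl1, Il6 and Cxcl5, at most 114 in a library, limit what could be detected for these genes.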
